A study of Mus musculus with 2 samples.

Results

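Deep binding clusters from 1 block of the read table of an anti-Rbfox1 iCLIP library are described here. In iCLIP, ultraviolet light joins a protein to the RNA it touches, and reverse transcription tends to stop beside the joined base, so each read gives a crosslink position. The lines of the deposited table fall into 11 blocks, each starting where the chromosome order begins again, and neither labels nor headers say what a block is. Reads of the fourth block on 1 strand were joined into a cluster when each crosslink position lay within 20 nt of the next. The members were chosen by read number: a cluster was kept, and is called deep here, when it held 10 reads or more. This gave 1098 deep clusters of the 4982 in that block, and of 10137 clusters in the whole library when every block was clustered by itself. The remaining 3884 clusters of the block are called shallow.

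The material was the cytoplasmic fraction of mouse forebrain neurons grown for 14 days in vitro, irradiated at 254 nm with 500 mJ/cm2. After crosslinking, 1 min on ice with 0.1% Triton X-100 opened the cells only in part, and what came out was precipitated with antibodies against Rbfox1 or, as the control, against the Flag epitope. Each antibody had 1 library, of 64820 reads for anti-Rbfox1 and 569 for anti-Flag. The labels used here name no strain, number of animals or Flag-tagged protein in the cells, and marker genes of the cell type and of the fraction were not analysed here. With 1 library for each antibody, an interval holds only the error of counting, and a test compares clusters within these libraries, not conditions. Amplified reads do not each stand for a separate molecule.

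Rbfox1, found in neurons and muscle, has a single RNA recognition motif, which binds RNA carrying GCAUG, most strongly UGCAUG. Its nuclear forms are known as splicing regulators that act from introns near alternative exons. Its cytoplasmic forms are known to bind the 3′ untranslated regions of messenger RNAs and to affect their stability and translation, among them messages for synaptic proteins. Genes, transcript regions and base sequence at the clusters were not analysed here, since the positions are of the mm9 build and the annotation at hand was of GRCm38. All positions below are mm9.

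The deep clusters held most of the reads of their block. They held 33013 of its 48064 reads, 68.7% (95% interval 68.3 to 69.1), or 50.9% of the library, and the shallow clusters held 15051. The deep clusters covered 87273 nt and the shallow ones 172158 nt, so that reads lay at 37.8 per 100 nt in the former and 8.74 in the latter. These values follow from the choice by read number and are given as a description. Just inside the threshold, 112 clusters had 10 reads, with a median of 8 crosslink positions over 58 nt. Just outside it, 134 clusters had 9 reads, with a median of 7 positions over 55 nt.

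Most members were of modest depth. Reads per deep cluster had a median of 17, an interquartile range of 12 to 33 and a maximum of 416. Of the members, 614 held 10 to 19 reads, 323 held 20 to 49, 118 held 50 to 99 and 43 held 100 or more. Those 43 held 21.9% of the reads in deep clusters, and 195 clusters were enough for 50%. The partner block of the control, the third of its table, held 185 reads in 70 clusters. The highest had 7 reads and 0 reached 10, which allows a share of up to 4.29%. The anti-Rbfox1 block held 48064 reads, so an equal share of the control at the deepest member would be only 1.60 reads. Control clusters of 10 reads could therefore hardly occur, and the 0 is not a contrast between the antibodies.

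**Figure D1:**
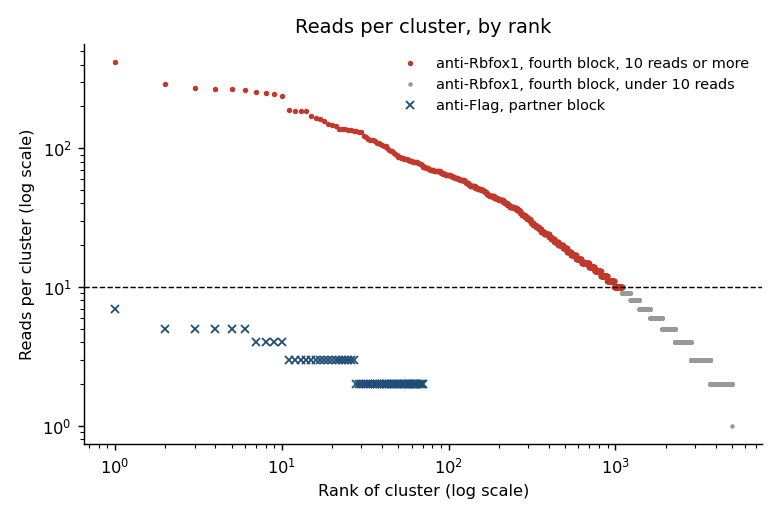
Reads per cluster against rank, both on log scales, for the fourth block of the anti-Rbfox1 library (red, 10 reads or more; grey, fewer) and the partner block of the anti-Flag library (crosses). The dashed line marks 10 reads; the 1098 red points run from 416 reads down to it, and the highest cross stands at 7. The blocks held 48064 and 185 reads, so the heights of points and crosses are not comparable.

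Deep clusters were spread unevenly over the blocks of the library. The 1098 members were part of 1247 deep clusters in all. In the fourth block 22.04% of clusters were deep (95% interval 20.9 to 23.2). The first block had 66 deep clusters of 3635, or 1.82% (1.41 to 2.30), and the ninth 10 of 663, or 1.51% (0.726 to 2.76). The sixth block, at 65 of 305 or 21.3% (16.9 to 26.3), was close to the fourth. The fifth block had the highest share, but with only 7 clusters, of which 3 were deep (42.9%, 9.90 to 81.6). The first 3 blocks hold 1 read at most for each strand and leftmost base, and the fourth does not. With the fourth block reduced in the same way, it kept 31751 reads, and 747 of 5017 clusters were deep, 14.9% (13.9 to 15.9). That was still above the interval of the first block, and the sixth block reduced likewise stood at 14.1% (10.4 to 18.5).

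With the 20 nt rule, the deepest member lay at chr2:136607762-136608035 on the plus strand, with 416 reads, 0.866% of the block (95% interval 0.785 to 0.952). Its reads started from 153 crosslink positions, and the highest, 136607835, had 12 reads. No control read overlapped it. An equal share of the control block would be 1.60 reads, so a count of 0 says little. With crosslinks joined over at most 10 nt it held 267 reads, fewer than clusters of chromosome 8 (269) and chromosome 11 (268), and with 50 nt a joined cluster of chromosome 5 came first of these, with 751. At chr7:17500996-17501177, minus strand, 292 reads included 25 at position 17501135, the most at any position of a deep cluster, and 12 at a position 4 nt 3′ of it. The first of these clusters was thus wide and many-peaked, and the second was led by a single position.

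A further 4 of the 6 deepest members had between 262 and 269 reads each. On the plus strand they lay at chr8:56144906-56145077 with 269 reads, chr11:17100215-17100377 with 268 and chr13:54482586-54482891 with 265. On the minus strand, chr5:136384508-136384722 held 262 reads. In these 4 the highest position held 8, 9, 6 and 8 reads in that order, between 2.26% and 3.36% of the cluster. The chromosome 11 cluster had 2 positions tied at 9 reads, 42 nt apart. Their reads were therefore spread over many positions, from 104 in the chromosome 11 cluster to 156 in the chromosome 13 cluster.

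**Figure D2:**
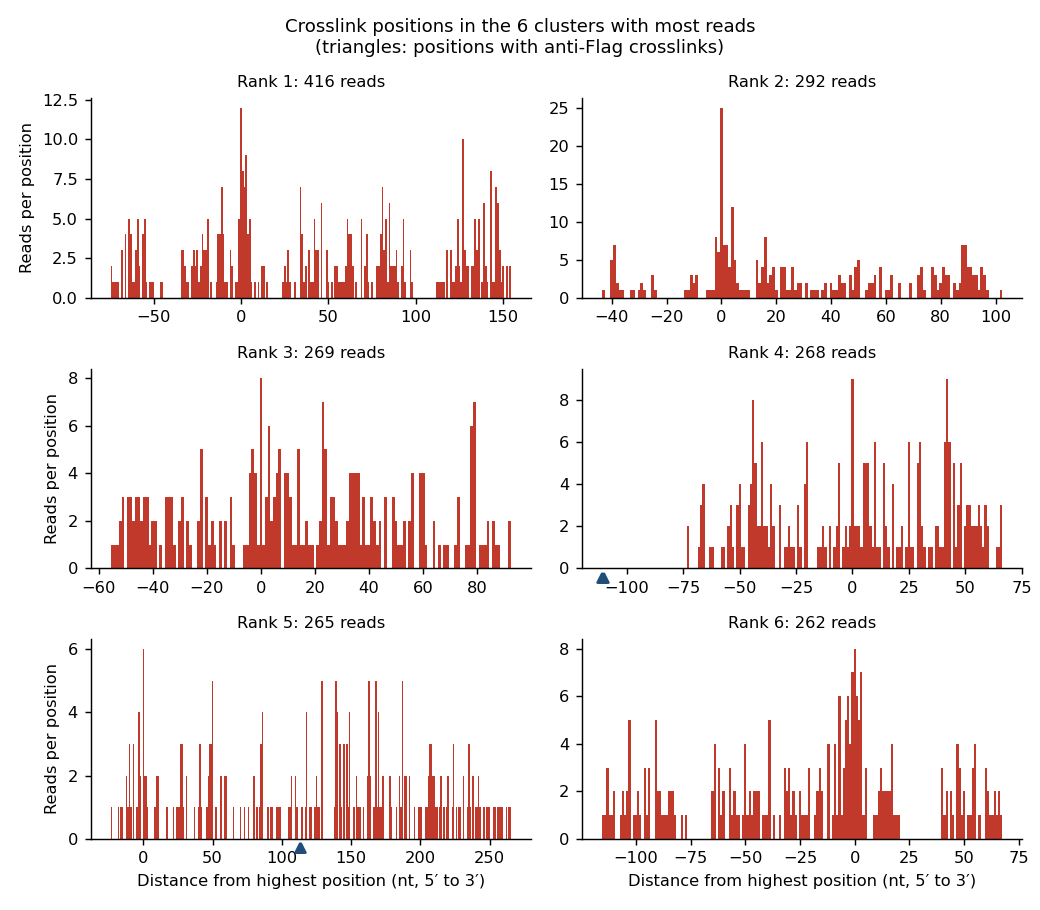
Reads per crosslink position (y axis) against distance from the highest position in nt, 5′ to 3′ (x axis), for the 6 deep clusters with most reads; triangles mark crosslink positions of overlapping control reads. Rank 2 has a single position of 25 reads, while ranks 3 to 6 stay at 9 reads or fewer per position.

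The minus strand of chromosome 5 held several of the deepest members side by side. Next to the 262-read cluster lay chr5:136384278-136384495 with 252 reads and chr5:136384743-136384852 with 237. Nearby, chr5:136386395-136386477, held 104 reads at only 20 positions, of which the highest had 20 reads, 19.2% of the cluster. Another minus-strand member of that chromosome, chr5:108947577-108947745, held 184 reads.

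The remaining clusters among the 15 deepest were mostly on the plus strand. They lay at chr10:72136937-72137137 with 249 reads, chr12:101447384-101447601 with 245, chr8:56145755-56145902 with 187, chr4:138013749-138014049 with 186 and chr4:154932634-154932798 with 171. On the minus strand, chr2:32644783-32645035 held 184. Together the 15 held 3667 reads, 11.1% of those in deep clusters.

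A cluster of over 100 reads was present on 16 of the 20 chromosomes with clusters in the block. Beyond those named above, the highest of their chromosome were chr3:7443932-7444200 (plus strand) with 165 reads, chr17:64631301-64631495 (minus) with 144 and chr15:25293215-25293314 (minus) with 137. The list went on with chr14:21319703-21319882 (minus) at 136, chr9:123371054-123371138 (plus) at 130, chrX:149935445-149935513 (plus) at 117 and chr6:60681696-60681810 (minus) at 101. The share of clusters that were deep ran from 16.4% on chromosome 6 (46 of 281, 95% interval 12.2 to 21.2) to 32.02% on chromosome 13 (65 of 203, 25.7 to 38.9). Chromosome 11 held most members, 137 of its 459 clusters, 12.5% of all deep clusters. Neighbouring clusters can come from 1 transcript, so these intervals are too narrow.

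Members differed in width and in how far their reads gathered at 1 position. Width had a median of 70 nt, an interquartile range of 58 to 91 and extremes of 31 and 306. The widest were the 265-read cluster on chromosome 13 at 306 nt, the 186-read cluster chr4:138013749-138014049 at 301 nt, and chr7:118215685-118215977 on the minus strand at 293 nt with 138 reads. The narrowest, all of 31 nt, were chr3:51209414-51209444 (minus) with 12 reads, and chr1:52220756-52220786 (minus) and chr18:63158858-63158888 (plus) with 10 each. The chromosome 1 cluster had 10 crosslink positions of 1 read each and a single 3′ end, so its reads differed only in where they started. When reads with a shared 3′ end and starts 1 nt apart were counted as 1, it fell to 6 reads and the chromosome 18 cluster to 8, both under the threshold, and all 40 named clusters had fewer reads.

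The highest position held a median of 3 reads, from 1 to 25. It stood at a median of 2.18 times the cluster's mean per position. That ratio rose with depth by class, from 1.83 at 10 to 19 reads to 3.78 at 100 or more, while the share of reads at the highest position fell from 20% to 5.95%. Both directions are partly set by the number of reads, since few reads over many positions leave little room for a high ratio. Reads at 1 position must differ in length, since no line of the table repeats another in both ends and strand, and lengths in the block took 60 values.

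After the 25-read position on chromosome 7 and the 20-read position on chromosome 5, the most reads at 1 position were 16 in chr7:17501655-17501731 on the minus strand, a cluster of 82 reads. There 19.5% of the reads shared a crosslink. Another 2 clusters reached 15, the 252-read cluster of chromosome 5 and chr2:136607185-136607298 on the plus strand, which held 147 reads. In the latter 49 of the 147 reads lay within 5 nt of the highest position.

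Read ends were somewhat less varied at 3′ than at 5′. The members' reads started from 19766 crosslink positions and stopped at 18103 distinct 3′ ends, 1.67 reads per position and 1.82 per 3′ end. In 627 clusters there were more positions than 3′ ends, in 323 fewer, and in 148 as many. The shallow clusters had 1.15 and 1.22. Read length, which the choice did not use, had a median of 28 nt in both deep and shallow clusters, with interquartile ranges of 22 to 35 and 23 to 35 nt. Reads under 20 nt long were 10.7% of those in deep clusters and 8.62% of those in shallow ones. By cluster, the members' median read length ran from 20 to 55 nt.

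A single highest position was present in 676 of the members, and their reads are described by distance from it. Of the reads of these clusters, 13.9% lay at the highest position, 35.1% within 5 nt, 48.7% within 10 nt and 66.8% within 20 nt. That position was chosen from the same reads, and the crosslink span had a median of 35 nt over all members. These shares are thus largely set by the choice and the width, and are a description. Reads lay on both sides of the highest position, with 25.8% from 1 to 20 nt on the 5′ side and 27.1% on the 3′ side. When each span of crosslink positions was divided into 3 equal parts, the highest position fell in the 5′ part in 217 clusters (32.1%), in the middle in 276 (40.8%) and in the 3′ part in 183 (27.1%). The mean profile had 4.59 reads at the highest position, and the next highest value was 1.04 reads at 1 nt on the 5′ side. On the 3′ side it had 0.790 reads at 1 nt, 0.666 at 2 nt, 0.734 at 3 nt, 0.898 at 4 nt and 0.516 at 5 nt. On the 5′ side it had 0.612 at 2 nt, 0.590 at 3 nt, 0.680 at 4 nt and 0.503 at 5 nt. The values at 4 nt were thus above those at 2, 3 and 5 nt on both sides, and the value at 1 nt was higher only on the 5′ side. The 3′ ends of the same reads were most frequent 24 nt beyond the highest position, at 0.886 per cluster.

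Distances of 1 and 4 nt were the most frequent short ones between the highest and the second position. The 4 nt distance was looked at because of the mean profile, so its share among the members is a description. In 259 members both the highest and the second position were unique, and in 44 of these, 17.0% (95% interval 12.6 to 22.1), they lay 4 nt apart. Fewer lay 3 nt apart (14) or 5 nt apart (5), and 40 lay 1 nt apart. The second position was on the 3′ side in 30 of the 44 and on the 5′ side in 14. The 44 clusters lay on 17 chromosomes and in 40 stretches of neighbouring clusters, so they did not come from a few places.

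Both strands and all depth classes showed pairs 4 nt apart, in 16 of 124 plus-strand and 28 of 135 minus-strand members. They made up 21 of 110 clusters of 10 to 19 reads, 11 of 82 of 20 to 49, 7 of 48 of 50 to 99, and 5 of 19 of 100 or more. Among the 40 clusters named here, 4 had such a pair, though many of the 40 had no unique second position and could not be counted. The 292-read cluster of chromosome 7 had 25 and 12 reads at the pair. The 184-read cluster of chromosome 2 had 11 and 9, and the 117-read cluster of chromosome X had 9 and 8. A cluster met again below, chr12:101444734-101444881, had 11 and 9. All 4 had the second position on the 3′ side. When tied second positions were counted in equal parts, so that 676 clusters could be used, the share was 12.1% at 1 nt, 6.32% at 2 nt, 5.93% at 3 nt, 11.6% at 4 nt and 3.72% at 5 nt. In this count 1 nt was thus the most frequent distance. A difference from other clusters at 4 nt was not shown. Pairs 4 nt apart made up 7 of 66 such shallow clusters (10.6%, 4.37 to 20.6; two-sided Fisher's exact p = 0.256) and 3 of 21 deep clusters of other blocks (14.3%, 3.05 to 36.3; two-sided Fisher's exact p = 1). In the control, 0 clusters had both positions unique, so it gave no value.

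**Figure D3:**
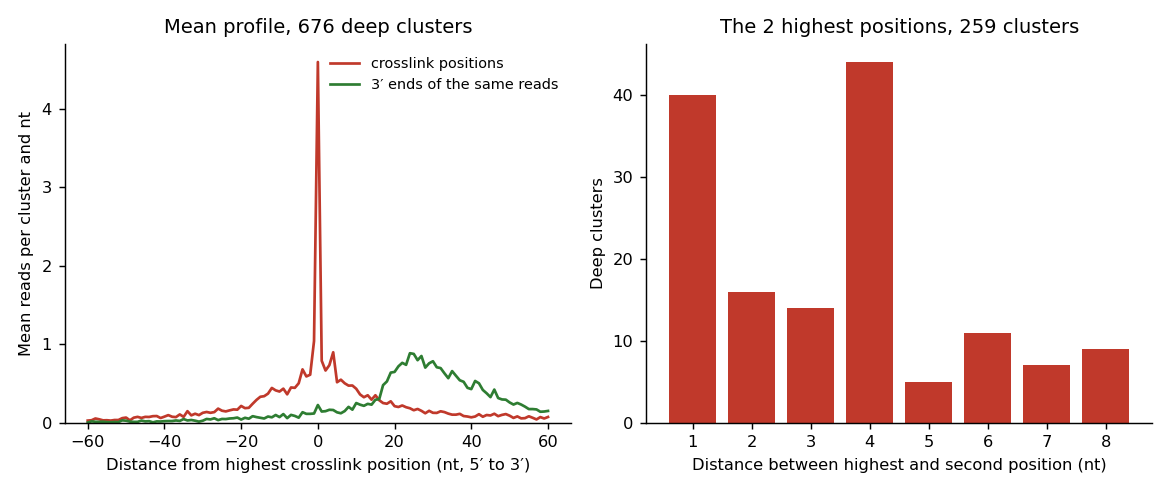
Left, mean reads per cluster and nt (y axis) against distance from the highest crosslink position (x axis, 5′ to 3′) over the 676 members with a single highest position, for crosslinks (red) and 3′ ends (green). Right, number of members (y axis) by distance in nt between the highest and second position (x axis), up to 8 nt, of 259 members; the bar at 4 nt stands at 44, with 14 at 3 nt and 5 at 5 nt.

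Most deep clusters, as divided here, had another cluster nearby on their strand. A same-strand cluster of any depth had its midpoint within 1000 nt in 957 of 1098 members, 87.2% (95% interval 85.03 to 89.1), against 60.1% of all clusters of the block. Among shallow clusters it was 2038 of 3884, 52.5% (50.9 to 54.1), a difference of 34.7 percentage points (two-sided Fisher's exact p = 5.54e-107). With deep neighbours only, the shares were 69.2% and 17.4%. Depth also chose the members, and deep clusters near each other count as each other's neighbours, so these shares are a description. Clusters of 1 transcript are not independent, so the p-value is too small. Neighbours also depend on the gap at which reads are divided into clusters, and the comparison was not repeated with other gaps. On the opposite strand, 0 members had a cluster within 1000 nt, which allows up to 0.273%, and 9 shallow clusters had one.

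When clusters of the block whose outer bases lay within 1000 nt on 1 strand were joined into stretches, the members fell into 562 of 2941 stretches. Of these, 318 held 1 deep cluster, 244 held 2 or more, and 43 held 5 or more. The 244 held 780 members, 71.04%, and had a median length of 698.5 nt, up to 4107 nt. Within a stretch, the highest positions of consecutive deep clusters lay a median of 146 nt apart, with an interquartile range of 92.8 to 339 nt over 536 distances. The division into clusters is in part a matter of the 20 nt rule, since the read spans of 235 members (21.4%) overlapped another cluster of the block.

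Most deep clusters in a stretch, 9 each, were found in 3 places. At chr2:70438992-70440059, plus strand, 9 clusters held 411 reads, and all were deep. From 5′ to 3′ they held 40, 122, 34, 45, 10, 38, 56, 44 and 22 reads, so the second was more than double any other. At chr13:98020508-98022975, plus strand, 9 of 13 clusters were deep and 137 of 277 reads lay in 1 of them. At chr3:146392583-146395268, minus strand, 9 of 10 were deep and 130 of 269 reads lay in 1. The stretches of chromosomes 13 and 3 thus joined 1 dominant cluster with a run of small ones.

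The other stretches among the 5 with most deep clusters had 7 each and 0 shallow ones. That at chr8:56144906-56145902, plus strand, was 997 nt long and held 755 reads, with its deepest clusters, of 269 and 187 reads, at its 5′ and 3′ ends. That at chr14:21319252-21320284, minus strand, held 454 reads, with 136 and 135 reads in the second and the last cluster from the 5′ end and at most 64 in the others. Counting reads instead, the chromosome 8 stretch was among the top 5 together with chr2:136607185-136608146 (plus, 837 reads in 6 deep clusters), chr5:136384278-136385081 (minus, 791 in 4), chr7:17500731-17502157 (minus, 703 in 5) and chr11:17099829-17100377 (plus, 524 in 4). In these 4, the deepest member was 416 of 837, 262 of 791, 292 of 703 and 268 of 524 reads.

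**Figure D4:**
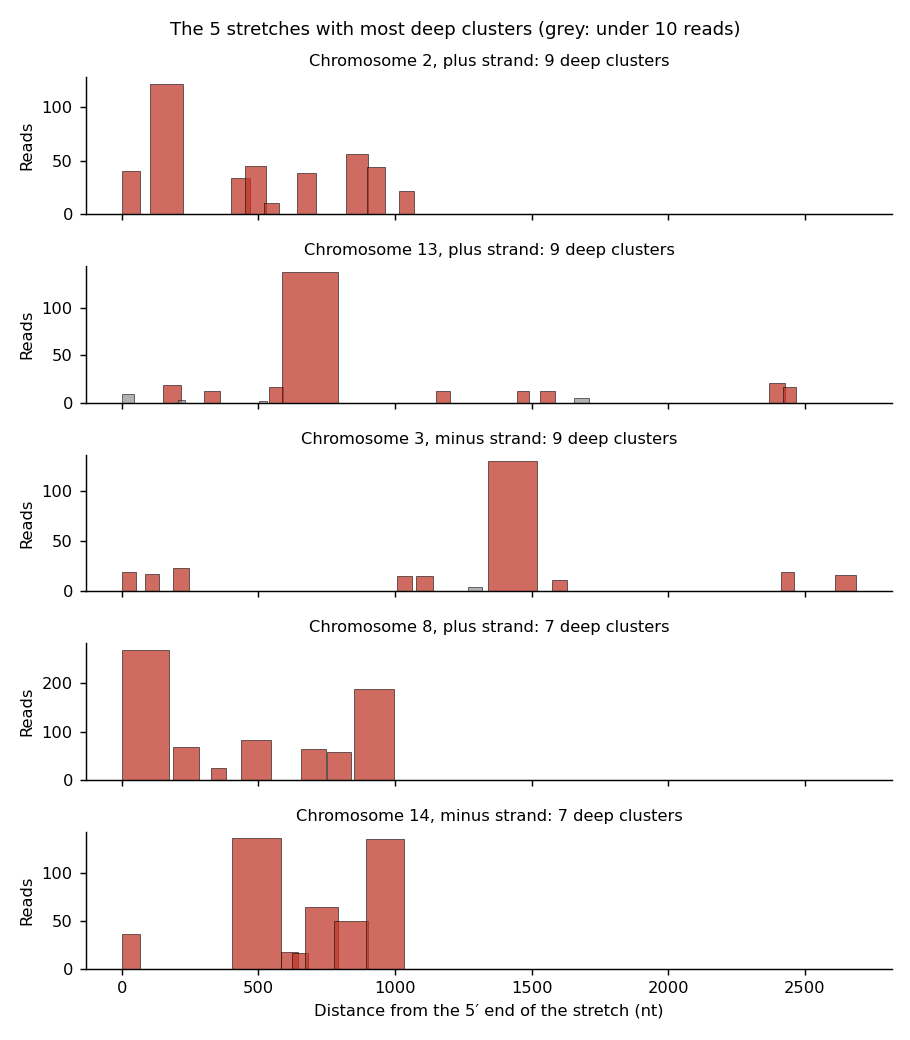
Reads per cluster (bar height, y axis) along the 5 stretches with most deep clusters, against distance in nt from the 5′ end of the stretch (x axis); each bar spans the cluster's reads, and grey bars are clusters under 10 reads. The chromosome 2, 13 and 3 stretches have 9 deep clusters each, the chromosome 8 and 14 stretches 7.

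The deepest cluster was not shown to favour an end of its stretch. In the 110 stretches with 2 deep clusters, the 3′ one was deeper in 56, the 5′ one in 49, and 5 were tied. The 3′ one was thus deeper in 53.3% of untied pairs (95% interval 43.3 to 63.1). In 134 stretches of 3 or more, the deepest was the first in 30, the last in 40 and in between in 59, with 5 ties.

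The plus-strand share was not shown to differ between deep and shallow clusters. The plus strand held 546 of 1098 members, 49.7% (95% interval 46.7 to 52.7), and 1930 of 3884 shallow clusters, also 49.7%, as over all clusters of the block (49.7%). The difference was 0.0357 percentage points (two-sided Fisher's exact p = 1). With 1 read per leftmost base it was 4.30 points, but that base is the 5′ end of a plus-strand read and the 3′ end of a minus-strand read, so this setting treats the strands unequally and its p-value is not used. With stretches as units the difference was -3.34 points, at 47.7% against 51.03% (Fisher's exact p = 0.160). The sign thus changed with the unit counted.

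Reads of other blocks of the library lay next to some members. Reads of the ninth block were within 1000 nt on the same strand of 110 members (10.02%) and 105 shallow clusters (2.70%). They overlapped 6 members and 0 shallow clusters. Reads of the first block were within that distance of 20 members (1.82%) and 15 shallow clusters (0.386%), and they overlapped 0 members and 2 shallow clusters. For the seventh block it was 3 members (0.273%) and 1 shallow cluster (0.0257%). The shares over all clusters of the fourth block were not computed and lie between those of members and shallow clusters. Differences were not tested. No read of blocks 2, 3, 5, 6, 8, 10 or 11 came within 1000 nt of a member. Blocks 2, 8 and 10 held only 23, 12 and 9 reads, so their 0 says little. Blocks 3, 5, 6 and 11 held 1037, 405, 2807 and 149 reads, and the ninth 2033.

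Control reads were found at few members, but more often than at shallow clusters. A control read of the partner block shared at least 1 base and the strand with 23 of 1098 members, 2.09% (95% interval 1.33 to 3.13), against 0.622% of all clusters of the block. Among shallow clusters it was 8 of 3884, 0.206% (0.0890 to 0.405), a difference of 1.89 percentage points (two-sided Fisher's exact p = 8.01e-10). Of the 185 control reads, 59 (31.9%, 25.2 to 39.1) overlapped deep clusters and 15 (8.11%, 4.61 to 13.02) shallow ones, 3 of them both. Of the 70 control clusters, 22 lay at deep clusters, so control reads came in groups, and neighbouring members could share them. The p-value is thus too small and the intervals are too narrow. No read of another control block overlapped a member. The 23 members had medians of 62 reads and 88 nt, the other 1075 of 17 reads and 70 nt, so depth and width moved with the overlap.

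Per covered length, control reads were denser at deep clusters. They numbered 0.676 per 1000 nt there and 0.0871 at shallow clusters, a ratio of 7.76 (95% interval 4.35 to 14.7). Per 1000 anti-Rbfox1 reads the values were 1.79 and 0.997, a ratio of 1.79 (1.00 to 3.40). Since control reads came in groups, the intervals of these and the following rates and ratios are too narrow. With 20 reads as the minimum, the ratio per read was 1.28 (0.779 to 2.12), so that its interval held 1. With the control crosslink required inside the cluster, it was 4.10 (1.63 to 13.2), and the ratio per length was 17.8 (7.07 to 57.3). Within the members, control reads per 1000 nt were 0.460 (0.273 to 0.727) at 10 to 19 reads, 0.436 (0.225 to 0.762) at 20 to 49, 0.971 (0.517 to 1.66) at 50 to 99 and 2.21 (1.26 to 3.58) at 100 or more. Per 1000 anti-Rbfox1 reads, they stood at 2.20 (1.30 to 3.48), 1.22 (0.628 to 2.12), 1.69 (0.897 to 2.88) and 2.21 (1.26 to 3.59) in that order. Per length, the interval of the deepest class lay above those of the 2 lowest classes and overlapped that of 50 to 99 reads, and per anti-Rbfox1 read the intervals of all 4 classes overlapped.

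**Figure D5:**
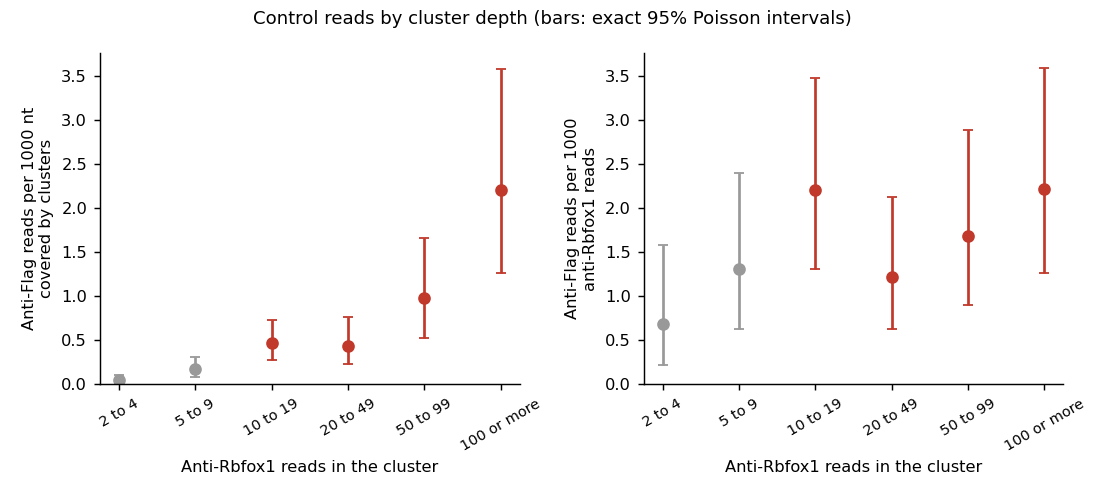
Control reads of the partner block per 1000 nt covered (left) and per 1000 anti-Rbfox1 reads (right), by number of anti-Rbfox1 reads in the cluster; points are rates, bars exact 95% Poisson intervals, red the deep and grey the shallow classes. The left panel goes up to 2.21 at 100 reads or more, while the intervals of the right panel's deep classes overlap.

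Most control crosslinks at members lay over 10 nt from the highest position. Of 62 overlaps between a control read and a member, 20 had the control crosslink within 10 nt of the member's highest position, and the median distance was 29.5 nt. An overlap needed only 1 shared base, and 45 of the 59 control reads had their crosslink inside the member's span of crosslinks. Of the anti-Rbfox1 reads of the 676 members with a single highest position, 48.7% lay within 10 nt of it. The highest position was chosen from anti-Rbfox1 reads, which favours a high share for them. The sets of members also differ, and a difference was not tested. By number of control reads, 10 members had 3 or more and 13 had 2, and 0 had 1. Lone reads were also nearly absent from the anti-Rbfox1 block. Of its 3884 shallow clusters, 2703 held 2 to 4 reads and 1180 held 5 to 9. The 0 is thus not read as a trait of the members, and its cause was not tested.

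The member with most control reads was shallow for a deep cluster. At chr11:69858769-69858814, plus strand, 15 anti-Rbfox1 reads met 7 control reads, where an equal share of both blocks would give 0.0577. At chr3:57646521-57646656, minus strand, 65 reads met 5 control reads, and at chr14:37935207-37935270, minus strand, 13 met 3. At chr9:58499863-58499926, plus strand, 40 met 3, and at chr12:70411348-70411434, plus strand, 36 met 3. In these 5 members the control count was well above an equal share, which was at most 0.250 reads. They are listed here for their control reads, and any control read would exceed that share, so this is a description.

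The other members with 3 control reads were deep. They were the 268-read cluster of chromosome 11, its neighbour chr11:17100125-17100217 with 109 reads, the 249-read cluster of chromosome 10, the plus-strand cluster chr12:101444734-101444881 with 163 reads, and the 130-read cluster of chromosome 9. An equal share of the control block would be between 0.420 and 1.03 reads in each. The chromosome 11 neighbours have overlapping spans, and the same 3 control reads were counted for both. Their crosslinks lay at -111 and -110 nt from the highest position of the 268-read cluster, the 5′ one of 2 tied at 9 reads. That was outside the crosslinks of this cluster itself, which ran from -73 to 66 nt. Members with 2 control reads included the 265-read cluster of chromosome 13, chr12:73313114-73313249 (minus) with 134 reads, chr8:56145342-56145450 (plus) with 83, chr17:21102559-21102646 (plus) with 77 and chr8:4257969-4258111 (minus) with 70. Of the 43 members of 100 reads or more, 7 overlapped control reads (16.3%), and the other 36 had 0, which at this depth does not show that they lack control signal.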

How the data were processed

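The authors deposited 1 table per library in which each line is an aligned read with its strand, its outer bases and an extra position. Reads were placed with Bowtie on mm9, per the submitters' processing notes; the version, filters and handling of duplicates were not stated there. That extra position was 1 base before the read's 5′ end in 64820 of 64820 and 569 of 569 reads and was taken as the crosslink. No value is a normalized unit. The 2 tables were divided into 11 and 7 blocks, and the third control block was taken as partner of the fourth anti-Rbfox1 block. Clusters, stretches and same-strand overlap of at least 1 base were computed with Python 3.11.15, numpy 2.4.6, pandas 2.3.3, scipy 1.17.1 and matplotlib 3.10.9. Shares have Clopper-Pearson 95% intervals, rates exact Poisson intervals, and a count of 0 a limit of 3 counts. The members and lists were chosen with earlier results of these data known. Clusters were named by rule: the 15 with most reads, the 5 with most reads at 1 position, 15 with most control reads, the 3 widest and narrowest, the highest of each chromosome if over 100 reads, and the 5 stretches with most deep clusters and with most reads. On simulated data, 500 of 500 planted clusters were recovered. The motif and transcript regions were planned but not analysed here, because they need mm9 sequence and annotation.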

Additional observations from a re-analysis of the deposited data

How the results depend on the processing

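Settings with 1 read per leftmost base, those for the control rates, those for pairs 4 nt apart and those for named clusters were chosen after seeing the data. Of 33 alternative settings, 19 left a test on its side of the threshold, a count within 1.5 times or a value in its main interval, 11 shifted a value further, 2 turned the direction of a difference and 1 made it pass its test. The number of deep clusters, 1098, was 1100 with a gap of 10 nt, 995 with 50 nt, 1009 with reads 1 nt apart and a shared 3′ end as 1, 783 by distinct positions and 747 with 1 read per leftmost base. The share of the block's reads in deep clusters, 68.7%, was 64.8% with a gap of 10 nt, 72.2% with 50 nt, 51.7% with a minimum of 20 reads, 52.6% by distinct positions and 51.2% with 1 read per leftmost base. The difference in plus-strand share, 0.0357 percentage points, was 4.30 with 1 read per leftmost base (Fisher's exact p = 0.0322), a setting that treats the strands unequally by construction, -3.34 with stretches as units and -1.28 with a gap of 50 nt. With the control crosslink required inside the cluster, the ratio of deep to shallow was 17.8 (7.07 to 57.3) per 1000 nt and 4.10 (1.63 to 13.2) per 1000 reads; at 20 reads or more the latter was 1.28 (0.779 to 2.12). The median ratio of highest to mean position, 2.18, was 1.93 in windows of 5 nt and 2.75 at 20 reads or more. The share of pairs 4 nt apart, 17.0%, was 11.6% with tied second positions counted in equal parts, and 8.22% when tied clusters were added only if all or none of the tied positions lay 4 nt away, which by construction adds mostly clusters with none. The cause of the other changes was not tested. Of 40 named clusters, 5 moved by over 1.5 times with a gap of 10 nt and 7 with 50 nt, and counting reads 1 nt apart with a shared 3′ end as 1 lowered all 40, 2 of them to under 10 reads. Alternatives for the motif and transcript regions were not run. No paired analysis was possible because there was 1 library for each antibody.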
